A study of Homo sapiens with 9 samples.

Results

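The genes described here supply peptides to MHC class I molecules, the surface proteins that show fragments of a cell's own proteins to CD8+ T cells. They are 10 genes chosen by name from textbook knowledge of the pathway, of 20812 genes in the deposited table: the transporter genes TAP1 and TAP2, the loading factor gene TAPBP, the immunoproteasome subunit genes PSMB8, PSMB9 and PSMB10, the proteasome activator genes PSME1 and PSME2, and the aminopeptidase genes ERAP1 and ERAP2. All 10 were in the table, each read through 1 amplicon, and 9 passed the filter on low values, ERAP2 being the exception. The samples were 9 RNA samples of SKBR3, an established human breast cancer line with ERBB2 amplification, given 10 nM of siRNA in a lipid transfection reagent and assayed at 48 h. There were 3 libraries with a non-targeting control siRNA, 3 with PVRL4 siRNA 1 and 3 with PVRL4 siRNA 2. PVRL4 (NECTIN4) encodes the adhesion protein nectin-4. The control siRNA and the PVRL4 siRNAs came from different suppliers, no untransfected cells were analysed here, and an effect of PVRL4 siRNA cannot be told apart from one of the supplier's duplexes.

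Peptide supply runs in a fixed order. The proteasome cuts proteins in the cytosol. Under interferon, cells replace its 3 catalytic subunits by PSMB8, PSMB9 and PSMB10, which gives the immunoproteasome, and the PSME1-PSME2 ring (PA28) docks on the ends of the barrel and speeds the release of peptides. TAP1 and TAP2 form the pump that carries peptides into the endoplasmic reticulum, tapasin (TAPBP) ties the pump to waiting class I molecules, and ERAP1 and ERAP2 trim peptides there to the length that fits. Most of these genes are textbook targets of interferon gamma and of type I interferon in many cell types.

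The promoters of these genes are shown because the genes were compared as a group and share a short sequence next to their start. In RefSeq promoter windows on GRCh38.p14, each running from 250 bases before to 50 bases after a transcription start, the core of the interferon-stimulated response element was found in 9 of the 10 genes. It was searched as GAAA, any 2 bases and GAAA again, on either strand, so that a match on the other strand reads TTTC, 2 bases, TTTC. It occurred in 9 of the 14 windows of these genes and in 3.57% of all 35116 windows, or 4.38% of 27305 genes. PSMB9 was the gene without a match in its RefSeq windows. Its annotated span in GENCODE begins elsewhere, at 32844136, and was not searched as a start, so this may depend on the annotation. The stretches below run 5′ to 3′ on the strand of the gene, with the matching letters in capitals.
TAP1, chr6:32853803-32853858, minus strand: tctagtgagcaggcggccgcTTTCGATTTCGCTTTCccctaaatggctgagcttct
TAP2, chr6:32838768-32838817, minus strand: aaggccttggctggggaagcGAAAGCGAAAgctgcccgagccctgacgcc
TAPBP, chr6:33314063-33314118, minus strand: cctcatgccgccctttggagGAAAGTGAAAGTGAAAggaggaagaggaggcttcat
PSMB8, chr6:32844022-32844071, minus strand: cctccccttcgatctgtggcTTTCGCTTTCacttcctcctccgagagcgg
PSMB10, chr16:67936842-67936891, minus strand: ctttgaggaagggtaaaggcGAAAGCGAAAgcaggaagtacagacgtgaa
PSME1, chr14:24136179-24136223, plus strand: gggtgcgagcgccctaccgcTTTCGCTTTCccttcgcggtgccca
PSME2, chr14:24146609-24146658, minus strand: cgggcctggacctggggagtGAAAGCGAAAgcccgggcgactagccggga
ERAP1, chr5:96807916-96807963, minus strand: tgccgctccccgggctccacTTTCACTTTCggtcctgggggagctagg
ERAP2, chr5:96876450-96876499, plus strand: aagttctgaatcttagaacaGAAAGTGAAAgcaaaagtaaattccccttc

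TAP1 and TAPBP each held a pair of overlapping matches, which merge into 1 longer run of capitals. In TAP1 the pair began 134 and 128 bases before the start, in TAP2 the match began 58 bases before it, and in TAPBP, PSMB8, PSMB10, PSME2 and ERAP2 the first base lay 4 to 30 bases before it. ERAP1 and PSME1 had the match just after the start. The starts of TAP1 and PSMB9, which are read in opposite directions, lie 488 bases apart (32853704 and 32854192 on chromosome 6), and the TAP1 pair ends 354 bases before the PSMB9 start, outside the PSMB9 window. A form of the NF-kappaB site, searched as GGG, any 2 bases and TTTCC on either strand, was found in TAP1 and TAPBP (2.33% of genes), and TTCNNNGAA, the core of the gamma-activated site, in TAP1 and PSMB8 (9.38% of genes). In TAP1 the gamma-activated site match lay in another RefSeq window, with its start at 32852761, and not in the window that held the other matches. No match of one of the 3 motifs overlapped a match of another. These are matches of letters only, and no binding was measured.

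Libraries held 10017130 to 10707777 reads, so that 1 read was worth 0.0934 to 0.0998 RPM (the deposited unit, reads scaled to the size of the library). PVRL4, the targeted gene, was at 7.86 to 11.6 RPM in control, 4.36 to 5.99 with siRNA 1 and 2.58 to 3.39 with siRNA 2, lower in all 6 siRNA libraries than in any control. With siRNA 1 its log2 change of -0.84 missed the threshold in limma (adjusted p = 0.0601) and in edgeR (0.0551). It passed with the replicate block (limma adjusted p = 0.0132) and in DESeq2 (0.0151). With siRNA 2 the change was -1.44 and passed (limma adjusted p = 0.00224). The 7 SKBR3 epithelial markers summed to 12969 to 13553 RPM in control, 12552 to 13182 with siRNA 1 and 10793 to 11564 with siRNA 2. The 10 leukocyte markers, which would mark blood cells rich in these genes, summed to at most 1.26 RPM in any library, with PTPRC, CD2, ITGAX and MS4A1 at 0 in all 9. Each library is a bulk sample, in which more cells with a transcript and more transcript per cell cannot be told apart. A library's values sum to the same total, so changes in RNA per cell are not seen.

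With siRNA 1, TAP1 of the peptide pump and PSMB9 of the immunoproteasome rose above control. All 9 tested genes had a log2 change above 0, with a median of 0.56, where all 11158 tested genes had a median of 0.014 and 53.9% were above 0. In 7 of the 9 every siRNA 1 library exceeded every control library, a pattern found in 6.40% of all tested genes. The test called 2 of 9 higher and 0 lower (0.636% and 0.215% of all tested genes). With the replicate number as a block it called 5 of 9, TAP1, PSMB8, PSMB9, PSMB10 and PSME2 (1.17% of all tested genes). With siRNA 2 it called 0 of 9 against control with or without the block, where 0.0358% and 0.457% of all tested genes were called higher and, without the block, 0.645% lower. At an unadjusted p under 0.05, limma gave 8 of 9 higher with siRNA 1 (3.26% of all tested genes) and 2 of 9 with siRNA 2 (2.49%). With siRNA 1 edgeR called 3 higher (0.753% of all tested genes) and DESeq2 4 (0.968%). With siRNA 2 each called 0 (0.0448% and 0.206%).

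**Figure D1:**
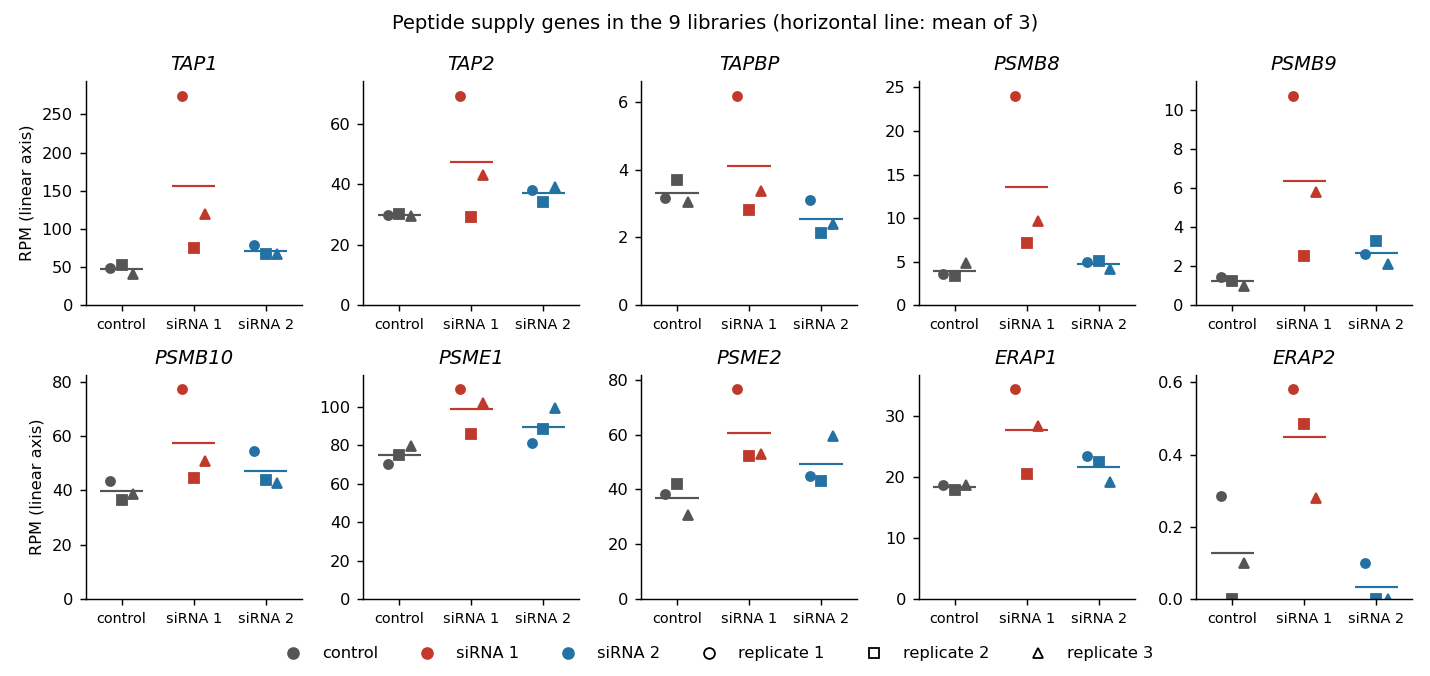
RPM of the 10 genes in each of the 9 libraries, 1 panel per gene with its own linear axis from 0; points are libraries, coloured by group and shaped by replicate number, and lines are means of 3. In every panel the highest siRNA 1 point is that of replicate 1, while siRNA 2 points lie closer together.

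TAP1, which encodes one half-transporter of the peptide pump, had the largest fitted change of the transport genes. The gene, read through amplicon AMPL6517148, sits in the class II region of the MHC (chromosome 6, minus strand, GRCh38 positions 32845209 to 32853978). It was at 48.5, 52.9 and 41.3 RPM in the control libraries, at 274, 75.4 and 120.1 RPM with siRNA 1, and at 79.3, 67.4 and 67.5 RPM with siRNA 2 (replicates 1, 2 and 3). No library of either siRNA fell within the control range. Group means were 47.5 ± 5.84, 157 ± 104 and 71.4 ± 6.82 RPM (SD, n = 3 each), so that siRNA 1 gave 3.29 times and siRNA 2 1.50 times the control mean. With siRNA 1 TAP1 rose by 1.50 in log2(RPM + 1), with a 95% confidence interval of 0.84 to 2.16 (limma adjusted p = 0.0378, and 0.00144 with the replicate block). This call depended on the libraries included: the adjusted p was 0.148, 0.107 and 0.170 without control replicate 1, 2 or 3, 0.0800 when siRNA 1 replicate 3 was dropped, and 0.0642 or 0.0527 when replicate 2 or 3 of siRNA 2 was dropped. Without siRNA 1 replicate 1, its highest library, the change was 0.99 and passed (adjusted p = 0.0144). The siRNA 2 change was 0.58 (interval -0.08 to 1.24, limma adjusted p = 0.616).

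TAP2, the partner half-transporter, had smaller fitted changes than TAP1 with both siRNAs. The gene lies nearby on chromosome 6, minus strand, 32821833 to 32838780, with PSMB8 between it and TAP1. Control libraries held 29.8, 30.2 and 29.5 RPM, siRNA 1 libraries 69.3, 29.3 and 43.1 RPM, and siRNA 2 libraries 38.0, 34.1 and 39.1 RPM. Replicate 2 of siRNA 1 lay just under the controls, whereas all 3 siRNA 2 libraries lay above them. The log2 change was 0.56 with siRNA 1 (interval 0.10 to 1.03, limma adjusted p = 0.556) and 0.30 with siRNA 2 (interval -0.16 to 0.77, adjusted p = 0.751). Without siRNA 1 replicate 2 the first of these passed (0.85, adjusted p = 0.0226), and without siRNA 1 replicate 1 it was 0.25 (adjusted p = 0.99972).

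TAPBP, the gene of tapasin (chromosome 6, minus strand, 33299694 to 33314387), was the tested gene whose change with siRNA 1 was smallest. It was at 3.15, 3.70 and 3.06 RPM in the 3 controls, 6.18, 2.81 and 3.36 RPM with siRNA 1, and 3.10, 2.13 and 2.38 RPM with siRNA 2. Only siRNA 1 replicate 1 stood above the controls, and these levels rest on 22 to 64 reads per library. The log2 change was 0.20 with siRNA 1 (interval -0.31 to 0.71) and -0.29 with siRNA 2 (interval -0.80 to 0.22), and neither passed (limma adjusted p = 0.99966 and 0.790). Without siRNA 1 replicate 1 the first turned to -0.074.

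PSMB9 (LMP2), the immunoproteasome subunit that takes the place of PSMB6, had the largest fitted change of the 9 tested genes with siRNA 1. The gene lies on the plus strand of chromosome 6, 32844136 to 32859585 (amplicon AMPL6936443). It was low in control, at 1.43, 1.23 and 0.986 RPM (15, 13 and 10 reads). With siRNA 1 it was at 10.7, 2.52 and 5.79 RPM, and with siRNA 2 at 2.60, 3.29 and 2.10 RPM. All 6 siRNA libraries exceeded all 3 controls. Means were 1.22 ± 0.223, 6.34 ± 4.13 and 2.66 ± 0.601 RPM (SD, n = 3 each), or 5.21 and 2.19 times the control mean for siRNA 1 and siRNA 2. With siRNA 1 PSMB9 rose by 1.57 on the log2 scale, which understates changes this near to 1 RPM (interval 0.86 to 2.28, limma adjusted p = 0.0424, and 0.00555 with the replicate block).

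The PSMB9 call held without siRNA 1 replicate 2 (adjusted p = 0.000415) and was lost with any other of the 9 libraries left out, at an adjusted p of 0.0542 to 0.177. Without siRNA 1 replicate 1 the change was 1.15. With siRNA 2 PSMB9 was 0.72 above control (interval 0.01 to 1.43), short of the threshold (limma adjusted p = 0.526).

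PSMB8 (LMP7), the counterpart of PSMB5, had the largest fitted difference between the siRNAs. Its span on chromosome 6, minus strand, is 32840717 to 32844703. Control libraries were at 3.63, 3.32 and 4.83 RPM, siRNA 1 libraries at 24.1, 7.17 and 9.62 RPM, and siRNA 2 libraries at 4.99, 5.04 and 4.20 RPM. Each siRNA 1 library exceeded the 6 others, and the siRNA 2 libraries overlapped the controls. With siRNA 1 the log2 change was 1.41 (interval 0.74 to 2.07), just short of the threshold in limma (adjusted p = 0.0522) and past it with the replicate block (0.00585), in edgeR (0.0365) and in DESeq2 (0.000220). In limma it also passed without siRNA 1 replicate 2 (1.74, adjusted p = 0.00427) and with none of the other 8 libraries left out; without siRNA 1 replicate 1 it was 0.93 (adjusted p = 0.0994). The siRNA 2 change was 0.23 (interval -0.44 to 0.90, limma adjusted p = 0.897).

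PSMB10 (MECL-1), the counterpart of PSMB7, lies outside the MHC on chromosome 16, minus strand, 67934502 to 67937087. Its control values were 43.6, 36.6 and 38.8 RPM, its siRNA 1 values 77.2, 44.6 and 51.0 RPM, and its siRNA 2 values 54.6, 43.8 and 42.6 RPM. The siRNA 1 libraries lay above all controls, siRNA 1 replicate 2 by 1 RPM. The log2 change of 0.49 with siRNA 1 (interval 0.12 to 0.86) missed the threshold (limma adjusted p = 0.453) and passed with the replicate block (0.0252). It was 0.26 without siRNA 1 replicate 1 (adjusted p = 0.99972). The change with siRNA 2 was 0.23 (interval -0.14 to 0.61, adjusted p = 0.767).

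The constitutive subunits that these 3 replace were not called with either siRNA. PSMB5, PSMB6 and PSMB7 had log2 changes of 0.070, 0.075 and 0.090 with siRNA 1 and of 0.039, -0.068 and -0.040 with siRNA 2 (limma adjusted p from 0.946 to 0.99966), and their groups overlapped. The ratio of each immunoproteasome subunit to its counterpart, as a difference of log2(RPM + 1) within a library, does not depend much on the scaling of the library. For PSMB9 to PSMB6 the mean log2 ratio was -5.71 ± 0.040 in the controls, -4.22 ± 0.67 for siRNA 1 and -4.92 ± 0.32 for siRNA 2 (SD, n = 3 each). The ratio was higher in every library of both siRNAs, by 1.49 and 0.78 on the log2 scale. For PSMB10 to PSMB7 it went from -1.43 ± 0.049 to -1.03 ± 0.22 with siRNA 1 and to -1.16 ± 0.15 with siRNA 2, again with no overlap with control. For PSMB8 to PSMB5 it was -5.29 ± 0.32, -3.96 ± 0.71 and -5.10 ± 0.062, where siRNA 1 stood apart from both other groups and siRNA 2 overlapped control. Over the 9 ratio comparisons, exact two-sided permutation tests gave p = 0.1 wherever the 2 groups did not overlap, the smallest that 3 against 3 libraries allow, and an adjusted p of 0.15. Amplicons differ in efficiency, so these ratios show changes and not the share of proteasomes that carry a subunit.

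**Figure D2:**
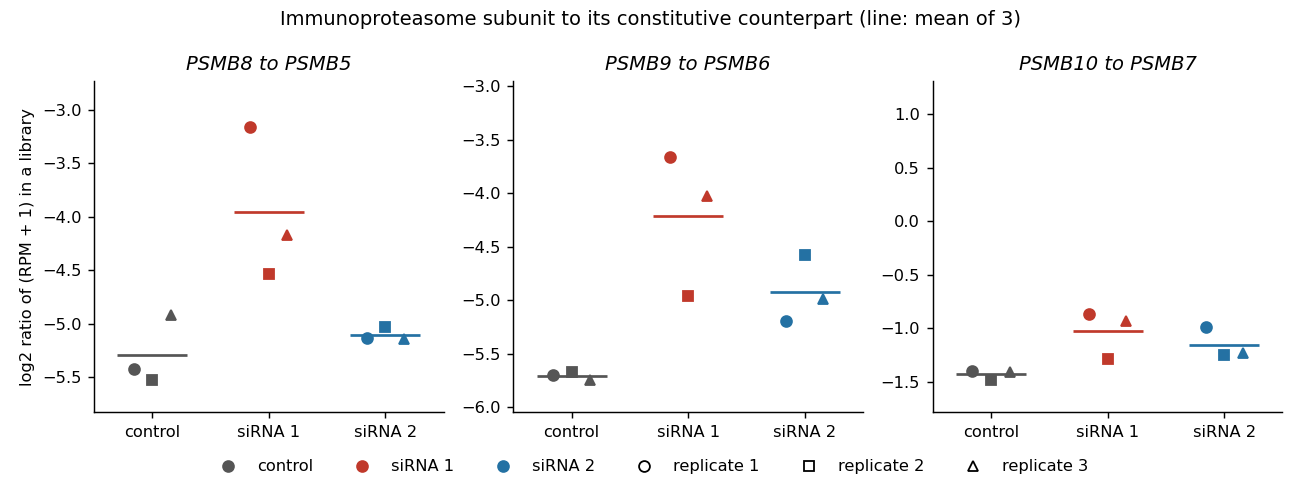
Log2 ratio of (RPM + 1) of PSMB8 to PSMB5, PSMB9 to PSMB6 and PSMB10 to PSMB7 in each library, by group, with lines at means of 3. siRNA 1 points lie above control in all 3 panels, and siRNA 2 points lie above control for PSMB9 and PSMB10 and overlap it for PSMB8.

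PSME1 and PSME2, the alpha and beta subunits of PA28, lie next to each other on chromosome 14 (24136158 to 24138967, plus strand, and 24143362 to 24147570, minus strand). PSME2 was at 38.5, 42.0 and 30.6 RPM in the 3 controls, 76.5, 52.2 and 53.0 RPM with siRNA 1, and 45.0, 43.0 and 59.4 RPM with siRNA 2. PSME1 was at 70.1, 74.7 and 79.6 RPM in the 3 controls, 109, 85.5 and 102 RPM with siRNA 1, and 80.9, 88.2 and 99.1 RPM with siRNA 2. In both genes all 6 siRNA libraries lay above all 3 controls. The log2 change of PSME2 was 0.69 with siRNA 1 (interval 0.32 to 1.05, limma adjusted p = 0.109, and 0.0249 with the replicate block) and 0.40 with siRNA 2 (interval 0.03 to 0.77, adjusted p = 0.478). For PSME1 it was 0.39 (interval 0.14 to 0.64, adjusted p = 0.261) and 0.25 (interval -0.00074 to 0.50, adjusted p = 0.533). PSME3, which forms the nuclear activator ring PA28 gamma and is no textbook interferon target, had changes of -0.018 and 0.062.

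ERAP1, the main trimming peptidase of the endoplasmic reticulum, sits on chromosome 5 (minus strand, 96760810 to 96808100). It was at 18.6, 17.9 and 18.6 RPM in the 3 controls, 34.3, 20.4 and 28.3 RPM with siRNA 1, and 23.5, 22.5 and 19.1 RPM with siRNA 2. The controls spanned less than 1 RPM, and the 6 siRNA libraries all lay above them. The log2 change was 0.54 with siRNA 1 (interval 0.18 to 0.89, limma adjusted p = 0.298) and 0.22 with siRNA 2 (interval -0.14 to 0.58, adjusted p = 0.770). The siRNA 1 change passed without siRNA 1 replicate 2 (0.73, adjusted p = 0.0326).

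ERAP2, its neighbour on the plus strand (96875939 to 96919716), was barely detected in these SKBR3 cells. It had 3, 0 and 1 reads in the control libraries, 6, 5 and 3 with siRNA 1, and 1, 0 and 0 with siRNA 2. The 14 reads of the siRNA 1 group lie beside 4 in control, and every control and siRNA 2 library was at or under the floor of 3 reads (0.280 to 0.299 RPM). It fell under the filter and was not tested.

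**Figure D3:**
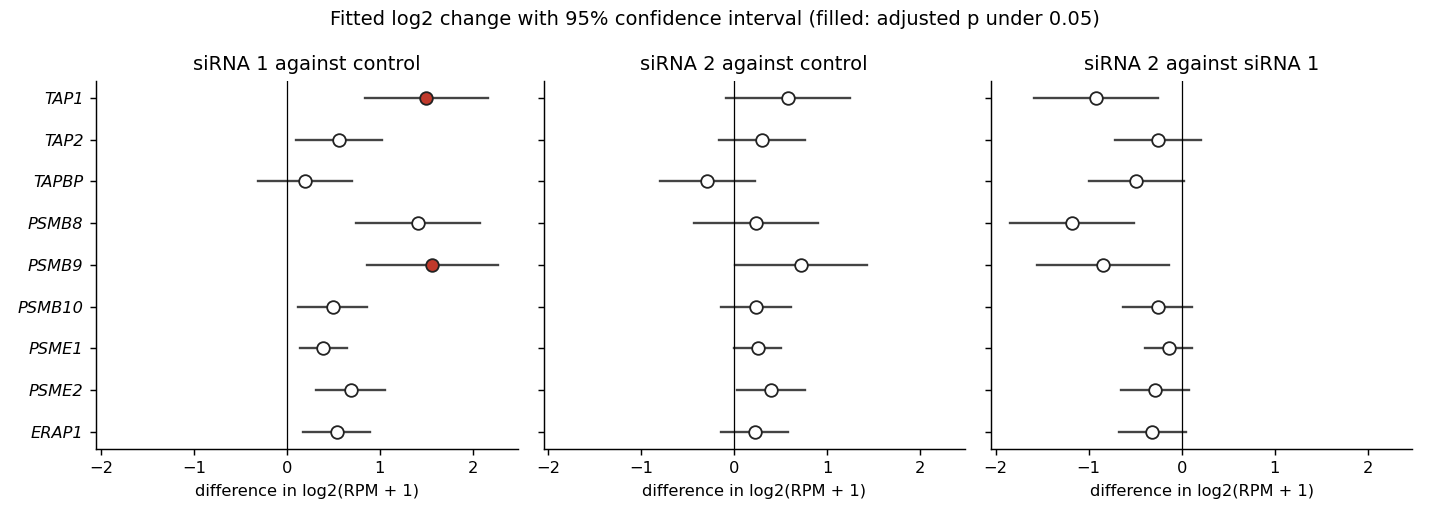
Fitted difference in log2(RPM + 1) of the 9 tested genes for siRNA 1 against control, siRNA 2 against control and siRNA 2 against siRNA 1, with 95% confidence intervals; filled points have an adjusted p under 0.05. TAP1 and PSMB9 are filled in the first panel, at 1.50 and 1.57, and no point is filled in the others.

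The fitted change was lower with siRNA 2 than with siRNA 1 in all 9 tested genes, and the test of the difference called none. Against control with siRNA 2, 8 of 9 log2 changes were above 0, with a median of 0.25 (all tested genes had a median of -0.022, with 45.4% above 0). In 6 of 9, TAP1, TAP2, PSMB9, PSME1, PSME2 and ERAP1, every siRNA 2 library exceeded every control, as in 4.99% of all tested genes. The 2 contrasts share the control libraries and are not independent. Set directly against siRNA 1, siRNA 2 was lower in 9 of 9, with a median of -0.31. All tested genes had a median of -0.039, with 42.9% above 0. Of the 9 genes limma called 0, where 2.46% of all tested genes were called lower. At an unadjusted p under 0.05 limma gave 3 lower (10.1% of all tested genes), and with the replicate block it called 2, TAP1 and PSMB8 (6.52% of all tested genes). edgeR and DESeq2 each called 1 lower, PSMB8 (2.30% and 3.06% of all tested genes).

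PSMB8 was the 1 gene of the 9 whose siRNA 1 and siRNA 2 libraries did not overlap. This share was no higher than in all tested genes, of which 12.6% were lower without overlap. The difference was -1.18 for PSMB8 (interval -1.84 to -0.51, limma adjusted p = 0.0584, and 0.00777 with the block). It was -0.92 for TAP1 (interval -1.58 to -0.26, adjusted p = 0.152, and 0.0184 with the block) and -0.85 for PSMB9 (interval -1.56 to -0.14, adjusted p = 0.221, and 0.0756 with the block). Without siRNA 1 replicate 2 all 3 passed, at adjusted p of 0.0120, 0.00720 and 0.0170 for PSMB8, TAP1 and PSMB9. Their differences were smaller without siRNA 1 replicate 1, at -0.70, -0.41 and -0.43 (adjusted p = 0.146, 0.334 and 0.576). The other 6 lay between -0.49 (TAPBP) and -0.14 (PSME1), with adjusted p from 0.352 to 0.648.

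The 3 siRNA 1 libraries kept 1 order in these genes. In all 9 tested genes replicate 1 was highest and replicate 2 lowest of the group. How many of all tested genes kept this order was not computed, so it may not be particular to the 9. The median log2 change of the 9 from the control mean was 1.04 in replicate 1, 0.19 in replicate 2 and 0.52 in replicate 3, and 0.34, 0.24 and 0.38 in the siRNA 2 replicates. Of the 9 genes, 9, 7 and 8 were above every control in the siRNA 1 replicates and 8, 8 and 6 in the siRNA 2 replicates. The share of all tested genes above every control in a single library was not computed, so these counts do not set the 9 apart. The 20 type I interferon reporter genes, a list of textbook interferon-induced genes, followed the same order with siRNA 1: they summed to 5981, 797 and 2568 RPM, against 104 to 123 RPM in control and 119, 136 and 207 RPM with siRNA 2. Of these 20 genes limma called 16 higher with siRNA 1 (0.636% of all tested genes) and 0 with siRNA 2 (0.0358%). With the replicate block it called 19 with siRNA 1 (1.17%) and 0 with siRNA 2 (0.457%). With siRNA 2 the log2 change was still above 0 in 19 of the 20, with a median of 0.33 (45.4% of all tested genes were above 0). In 3 of them every siRNA 2 library exceeded every control, as in 4.99% of all tested genes. The list was chosen with earlier results of these data known. Whether the interferon reporters and the peptide supply genes share a cause was not tested.

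**Figure D4:**
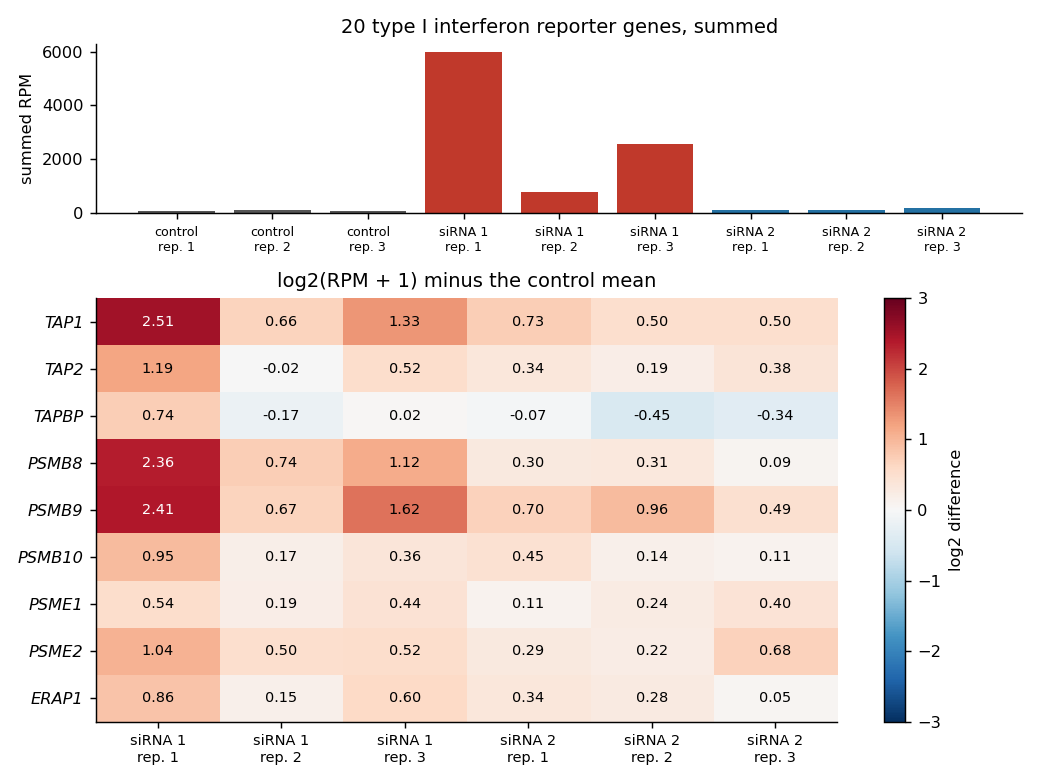
Upper panel: summed RPM of the 20 type I interferon reporters in all 9 libraries, as bars from 0. Lower panel: log2(RPM + 1) minus the control mean for the 9 tested genes in each of the 6 siRNA libraries, as a colour scale. siRNA 1 replicate 1 has the strongest colour in every row and the highest bar (5981 RPM).

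Among genes averaging 10 RPM or more, those whose changes over the 6 siRNA libraries lay closest to TAP1 and PSMB9 included GBP1 and EIF2AK2. PSMB8 and PSMB9 averaged less and were not among the genes compared. They lay closer to TAP1 than any gene named here, at mean absolute differences of 0.247 and 0.151. Among the 7934 genes averaging 10 RPM or more, the mean absolute difference in log2 change from TAP1 was 0.256 for GBP1, 0.328 for EIF2AK2 and 0.384 for TRIM38. GBP1 encodes a guanylate-binding protein of host defence and EIF2AK2 the RNA-sensing kinase PKR. From PSMB9 it was 0.143 for GBP1, 0.151 for TAP1 and 0.367 for EIF2AK2. The values describe likeness over 6 libraries of 2 siRNAs.

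Other parts of the antigen-processing machinery were set beside the 10 genes. Of the 14 constitutive genes of the 20S core, which include PSMB5, PSMB6 and PSMB7, limma called 0 with either siRNA (0 at an unadjusted p under 0.05, with medians of 0.079 and 0.030). Of the 18 genes of the 19S cap, which feeds substrates into the barrel, it called 0 with either (1 and 3 unadjusted, medians 0.069 and 0.067). PSMC6, an ATPase of the cap, was 0.34 above control with siRNA 2 and passed with the replicate block (adjusted p = 0.0394; 0.212 without). Between the siRNAs, limma called 1 of the 18 cap genes higher with siRNA 2 (66 of 11158 tested genes), and 14 of 21 alternatives called 0. Of 8 assembly factors and other activators it called 0 with either (1 and 0 unadjusted, medians 0.017 and 0.079). POMP, the maturation factor of new proteasomes, changed by 0.28 and 0.031.

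The chaperones of peptide loading were also not called with either siRNA (0 of 4, with 0 and 1 at an unadjusted p under 0.05). CALR (calreticulin), CANX (calnexin), PDIA3 (ERp57) and TAPBPL, the tapasin-related editor, had log2 changes of 0.017, 0.054, 0.0025 and 0.38 with siRNA 1 and of -0.24, 0.13, -0.058 and -0.15 with siRNA 2. Among 6 tested cytosolic and endosomal peptidases limma called 0 with either (1 unadjusted in each). The one that stood out was LAP3, leucine aminopeptidase, named after its value was seen, with a control mean of 54.2 ± 5.06 RPM, a siRNA 1 mean of 112 ± 54.2 RPM and a siRNA 2 mean of 55.5 ± 10.6 RPM (SD, n = 3 each). Its log2 change of 0.92 with siRNA 1 passed with the replicate block (limma adjusted p = 0.0120; 0.204 without).

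Of the class I chains the peptides are loaded onto, B2M, the invariant light chain, rose with siRNA 1 (532.7 ± 52.0 to 928 ± 245 RPM, log2 change 0.77, limma adjusted p = 0.0246), and was 0.35 above control with siRNA 2. The call was lost without any of the 3 controls or without siRNA 1 replicate 1 or 3 (adjusted p from 0.0563 to 0.162). B2M was 1 of 4 tested chains called with siRNA 1 and 0 of 4 with siRNA 2. With the replicate block 2 of 4 were called with siRNA 1, HLA-E, a nonclassical heavy chain, being the other (log2 change 0.54, limma adjusted p = 0.0133; 0.0797 without the block).

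Of 11 regulators of class I genes, limma called 3 higher with siRNA 1, among them IRF9 (3.67, adjusted p = 0.000107) and STAT2 (1.14, adjusted p = 0.0451), both part of the signalling route of type I interferon. IRF9 passed with each of the 9 libraries left out in turn, and STAT2 passed without siRNA 1 replicate 2 and with no other library left out (adjusted p from 0.0598 to 0.226 in those 8). It called 5 with the replicate block, adding NLRC5 and IRF1. With siRNA 2 it called 0 (1 at an unadjusted p under 0.05), also with the block. NLRC5, the transactivator of class I and peptide supply promoters, was at 0.764, 0.474 and 0.493 RPM in the 3 controls, 16.3, 1.45 and 5.98 RPM with siRNA 1, and 1.10, 0.388 and 1.15 RPM with siRNA 2. All siRNA 1 libraries were above the rest, in the order replicate 1, 3, 2. Its log2 change was 2.08 (limma adjusted p = 0.0725, and 0.00281 with the block).

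IRF1, the factor that relays interferon gamma, was at 8.02, 14.2 and 8.48 RPM in the 3 controls, 40.7, 18.0 and 16.0 RPM with siRNA 1, and 11.7, 15.6 and 7.92 RPM with siRNA 2. Its siRNA 1 change was 1.12 (limma adjusted p = 0.191, and 0.0209 with the block). The interferon gamma gene IFNG had no read in 8 libraries and 1 read in siRNA 2 replicate 1. IFNB1, the interferon beta gene, was at 2.32, 0 and 0.560 RPM with siRNA 1, at 0.095 RPM in control replicate 1 and at 0 in the other control libraries and with siRNA 2. The class II pathway, used by professional antigen-presenting cells, was near the floor: its 11 genes in the table summed to 2.70 to 5.51 RPM per library, with CD74, HLA-DMB, HLA-DOA and HLA-DQA1 at 0 throughout, and HLA-DMA was the 1 gene high enough to be tested.

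**Figure D5:**
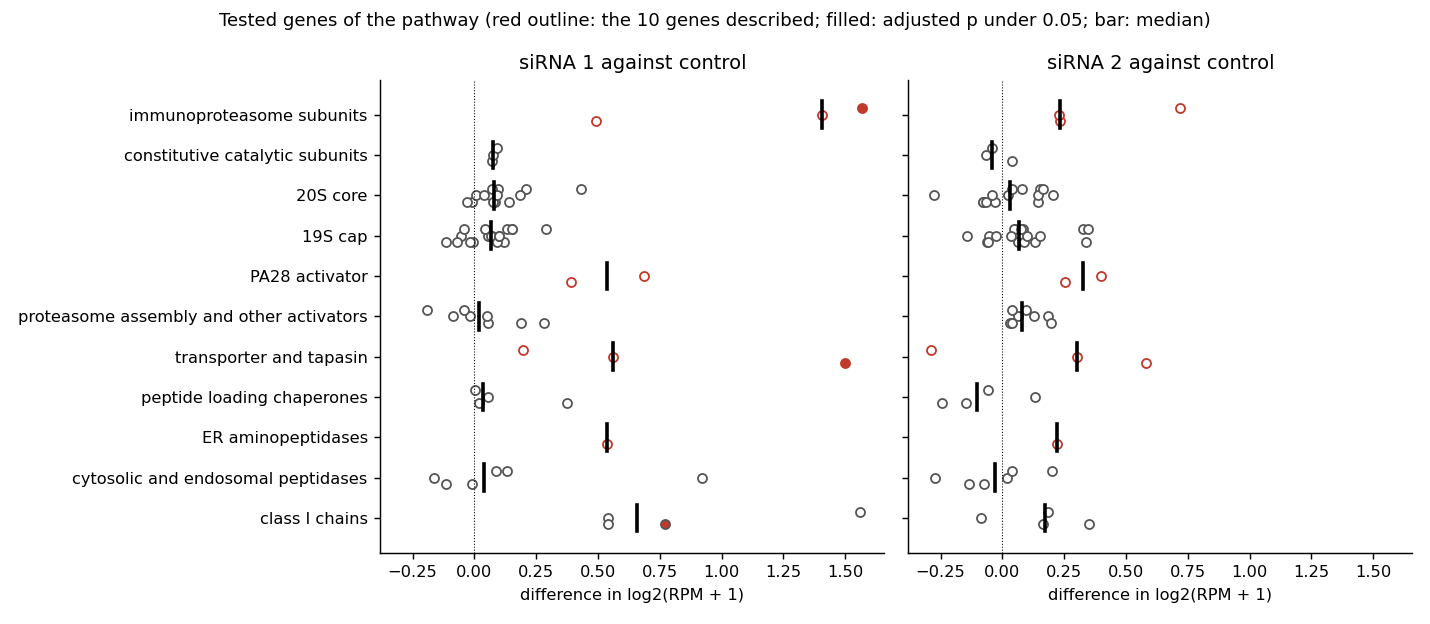
Difference in log2(RPM + 1) of every tested gene of the pathway lists, 1 row per list, for siRNA 1 and siRNA 2 against control; red outlines mark the genes described here, filled points have an adjusted p under 0.05, and bars are list medians. The 20S core, 19S cap and loading chaperone medians lie between -0.10 and 0.079. Over both siRNAs their single genes range from -0.28 to 0.43 (20S core), -0.15 to 0.35 (19S cap) and -0.24 to 0.38 (chaperones). The immunoproteasome median of 3 genes is 1.41 with siRNA 1 (0.49 to 1.57) and 0.23 with siRNA 2 (0.23 to 0.72).

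Several of these genes share sequence on the genome. In GRCh38 the annotated spans of PSMB9 and the antisense gene PSMB8-AS1 overlap each other and those of TAP1 and PSMB8. The spans of TAP1 and PSMB8 do not overlap each other. Overlaps were also found for ERAP1 with CAST, PSME1 with EMC9 and PSME2 with RNF31. The counting's use of strand and the amplicon positions are not given in the sources used here, so reads from overlapping genes could not be told apart.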

How the data were processed

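RNA of 9 SKBR3 samples, 3 per group by the sample titles, was made into amplicon libraries from 100 ng with an Ion AmpliSeq transcriptome kit, per the labels' protocols. The authors deposited RPM values (each gene's reads scaled to its library) for 20812 genes. Per the submitters' processing notes the genome build was hg19, and the aligner and counter are not given in the sources used here. Amplicon reads carry no molecular identifiers, so read floors cover counting error only. All values were whole reads within 0.1 read, which gave reads for edgeR 4.0.16 and DESeq2 1.42.0 as alternatives.

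Values were tested as log2(RPM + 1), a scale that understates changes near 1 RPM, with limma 3.58.1 (trended prior, R 4.3.3) on the 11158 genes that averaged 1 RPM or more, the 3 groups in 1 fit, two-sided, with Benjamini-Hochberg adjustment over all tested genes and a threshold of 0.05. Subunit ratios were compared by exact permutation tests (scipy 1.17.1), adjusted over 9. Nothing in the labels says that the replicates were grown separately, and the spread behind the p-values may be technical. The titles number the replicates, but no label says that samples with the same number were handled together, so pairing by number is inferred. Once group means were taken out, the 9 pairs across groups with a common number correlated at 0.252 to 0.417. The other 18 pairs across groups correlated at -0.340 to -0.0275. Taking out group means forces the other pairs down where same-number pairs are positive. The gap between these ranges is therefore partly arithmetic. Results with the number as a block are given for the 9 tested genes where they change a call, and for only some of the other genes. They rest on this inferred pairing.

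The 10 genes and the 19 lists of pathway and marker genes were chosen from textbook knowledge with earlier results of these data known. The rule for names takes the 10 genes, PVRL4, their direct partners and up to 3 called genes of each other list. For TAP1 and PSMB9 it adds the 3 genes nearest in log2 change among those averaging 10 RPM or more. Gene positions are from GENCODE 29 (GRCh38) and promoter windows from RefSeq (GRCh38.p14), not from the authors' build. The fit was tested on simulated counts drawn independently for each library, with no effect of replicate number. That test therefore says nothing about spread shared by replicate. Alternatives were other pseudocounts, filters, scalings, tools and fits, and each library left out. A few of the partner genes are not reported here.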

Additional observations from a re-analysis of the deposited data

How the results depend on the processing

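Of the 9 tested genes, 2 were called with siRNA 1 against control. The count was 0 with a pseudocount of 5, with no filter, with the 6 libraries compared fitted alone or without a trend, 1 with a filter at 5 RPM (which drops PSMB9 and TAPBP) or with quantile scaling, 3 with a pseudocount of 0.1 or edgeR, 4 with DESeq2 and 5 with the replicate block. With 1 library left out it ran from 0 to 5. TAP1 was called in 11 of 21 alternatives, PSMB9 in 7 of 20 and PSMB8 in 5 of 21. With siRNA 2 against control the count was 0 under every alternative run. Between the siRNAs it was 0, and 2 with the replicate block, 1 with edgeR, 1 with DESeq2 and 0 to 3 with 1 library left out. The change of TAPBP with siRNA 1 ran from -0.074 (without siRNA 1 replicate 1) to 0.38 with 1 library left out, and the difference of TAP2 between the siRNAs from -0.55 to 0.055 (without siRNA 1 replicate 1); these were the 2 changes of sign. The cause of these shifts was not tested beyond the genes and libraries that each alternative drops.

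Counts over all tested genes also moved: with siRNA 1, 71 higher (40 to 130) and 24 lower (6 to 76); with siRNA 2, 4 higher (0 to 51) and 72 lower (17 to 329); between the siRNAs, 66 higher (21 to 314) and 274 lower (131 to 727). The highest of each came with the replicate block. Against control with either siRNA, the 20S core, the assembly factors and the loading chaperones had 0 called under each of the 21 alternatives, edgeR and DESeq2 included, and the 19S cap at most 1. Counts of interferon reporters called with siRNA 1 ran from 14 to 20. PSMB9 in control (10 to 15 reads per library) and TAPBP (22 to 64) rest on few reads.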
